A study of Homo sapiens with 47 samples.

Results

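Metallothioneins are small, cysteine-rich proteins that bind zinc and copper inside the cell, and SLC30A1 (ZnT1) is the transporter that carries zinc out across the plasma membrane. The 7 genes described here are the metallothioneins MT2A, MT1X, MT1E, MT1F, MT1G and MT1M and the zinc exporter SLC30A1. They were chosen by name, for their shared role in binding or exporting zinc, from the 25739 genes of the table, and all 7 were in it. Metallothionein genes are induced when the zinc sensor MTF1 binds short metal response elements in their promoters, and glucocorticoids also induce MT2A. SLC30A1 is a target of MTF1 too, so that binding and export of zinc can rise in the same cell.

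The cells came from MDA-MB-231-LM2 (LM2), a highly metastatic derivative of the human triple-negative breast cancer line MDA-MB-231, labeled with GFP. Circulating tumor cells (CTCs) were the progeny of LM2 cells placed in the mammary fat pad of NOD/SCID gamma (NSG) mice, enriched from terminal blood by size in a microfluidic cassette and picked singly by their GFP. NSG mice lack mature T, B and natural killer cells, but they still have erythroid cells, platelets and neutrophils. The labels give no treatment and no age of the mice. Values were present for 37 CTCs, which were 2 from mouse 5541, 4 from mouse 5542, 10 from mouse 5545, 17 from mouse 5546 and 4 from mouse 5549, and for 6 LM2 cells from culture. In mouse 5546, 9 library names contain the letter c and 8 the letter s, which no label explains. Full-length cDNA of each cell was made by SMARTseq2, a method without molecular identifiers that captures polyadenylated RNA, and values are normalized counts, which are reads on a gene scaled by a size factor that the authors estimated for each cell. Reads on genes ranged from 469614 to 2041333 per CTC and from 776949 to 1186197 per cultured cell. The 8 markers fixed for the tumor line were each detected in the CTCs of all 5 mice, with a summed value of 5047 to 29662 in CTCs and 8313 to 11608 in cultured cells. Erythroid markers summed to 0 in every cultured cell and to between 0 and 12522 in CTCs, mostly HBB. Neutrophil markers summed to 0 in every cultured cell and to between 0 and 571 in CTCs. For leukocyte markers the range was 0 to 419 in CTCs and 0 to 7.96 in cultured cells, and for platelet markers 0 to 77.3 and 0 to 3.23.

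The metallothionein genes lie in 1 cluster on chromosome 16 (GRCh38). MT2A occupies chr16:56608584-56609497, MT1E chr16:56625475-56627112, MT1M chr16:56632659-56633981, MT1F chr16:56657731-56660698 and MT1X chr16:56682470-56684196, all on the plus strand. MT1G lies between MT1F and MT1X on the minus strand, at chr16:56666730-56668065. SLC30A1 is on the minus strand of chromosome 1, at chr1:211571568-211579161. Promoter sequences from 250 bases before to 50 bases after the transcription start were found in RefSeq (GRCh38.p14) for MT2A, MT1X and SLC30A1. They are shown because they carry the metal response element core, searched as TGCACNC and TGCGCNC on both strands and given in capitals. The windows are chr16:56608334-56608633 (plus strand), chr16:56682220-56682519 (plus strand) and chr1:211579112-211579411 (minus strand).
MT2A: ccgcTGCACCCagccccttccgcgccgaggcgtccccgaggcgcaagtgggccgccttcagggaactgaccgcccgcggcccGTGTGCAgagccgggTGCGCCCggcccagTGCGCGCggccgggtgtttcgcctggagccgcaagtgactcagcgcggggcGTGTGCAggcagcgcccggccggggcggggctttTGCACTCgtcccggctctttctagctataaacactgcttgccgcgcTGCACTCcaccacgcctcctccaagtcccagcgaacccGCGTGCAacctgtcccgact
MT1X: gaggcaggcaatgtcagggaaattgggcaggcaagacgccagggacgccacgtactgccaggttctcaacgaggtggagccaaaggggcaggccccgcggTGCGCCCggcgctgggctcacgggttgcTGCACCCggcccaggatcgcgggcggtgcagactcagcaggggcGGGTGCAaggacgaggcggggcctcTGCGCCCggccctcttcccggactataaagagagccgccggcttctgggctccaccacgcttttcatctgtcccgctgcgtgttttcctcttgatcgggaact
SLC30A1: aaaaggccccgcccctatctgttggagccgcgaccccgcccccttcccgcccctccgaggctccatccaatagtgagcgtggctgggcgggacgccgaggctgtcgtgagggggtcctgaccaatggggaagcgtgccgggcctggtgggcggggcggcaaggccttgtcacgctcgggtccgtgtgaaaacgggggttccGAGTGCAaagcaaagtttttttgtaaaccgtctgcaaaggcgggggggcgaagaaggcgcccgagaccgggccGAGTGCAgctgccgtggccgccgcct
The MT2A promoter held 8 matches, none of which overlapped, the MT1X promoter 4 and the SLC30A1 promoter 2. Of 35116 promoters of the same length, 29.6% held at least 1 match, 8.60% at least 2, 2.30% at least 3 and 0.162% at least 5. A match is a run of letters, and binding of MTF1 was not measured.

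Coding sequences in the family are close to each other, which matters for reads that were kept only when they mapped to a single place. The coding sequence used for MT1E is longer, at 384 bases against 186 for MT2A, and 198 bases of that alignment are gaps. The pair MT1M and MT1B is shown because these genes were seen together in 1 mouse, and the pair MT2A and MT1G because their values were correlated across CTCs. Capitals mark the bases that differ within each pair, including bases present in only 1 of the pair.
MT1M: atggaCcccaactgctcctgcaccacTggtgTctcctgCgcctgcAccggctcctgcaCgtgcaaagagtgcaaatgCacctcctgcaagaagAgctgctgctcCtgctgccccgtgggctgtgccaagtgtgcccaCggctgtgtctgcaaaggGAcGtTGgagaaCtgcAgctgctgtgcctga
MT1B: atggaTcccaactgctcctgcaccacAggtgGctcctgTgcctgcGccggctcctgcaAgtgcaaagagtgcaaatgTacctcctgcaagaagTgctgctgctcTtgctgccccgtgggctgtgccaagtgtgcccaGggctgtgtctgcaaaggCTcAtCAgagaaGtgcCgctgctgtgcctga
MT2A: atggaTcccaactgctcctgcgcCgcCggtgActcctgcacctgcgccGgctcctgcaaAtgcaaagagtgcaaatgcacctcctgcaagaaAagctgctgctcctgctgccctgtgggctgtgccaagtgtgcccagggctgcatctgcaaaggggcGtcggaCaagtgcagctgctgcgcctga
MT1G: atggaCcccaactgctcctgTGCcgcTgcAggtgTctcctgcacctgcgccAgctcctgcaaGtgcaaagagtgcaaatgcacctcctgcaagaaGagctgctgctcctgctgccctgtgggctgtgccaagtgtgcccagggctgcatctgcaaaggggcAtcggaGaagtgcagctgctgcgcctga
MT1M and MT1B were identical at 90.9% of aligned bases, with 17 mismatches over 186 bases. MT2A and MT1G were identical at 93.7%, with 9 mismatches and 3 bases that only MT1G has. Of the 50-base windows along the main transcript, the share also found in a transcript of another gene was 11.1% for MT2A, 10.3% for MT1E, 6.12% for MT1F, 19.9% for MT1G, 14.6% for MT1M and 0 for SLC30A1. For MT1X it was 50.99%, most of it shared with the overlapping noncoding RNA ENSG00000259827, which lies on the same strand and covers 18.6% of the exon bases of MT1X. With 75-base windows the share was 0 for MT2A, MT1F, MT1M and SLC30A1, 1.64% for MT1E, 6.55% for MT1G and 36.1% for MT1X. With ENSG00000259827 alone MT1X shared 33.0% of its 50-base windows and 27.9% of its 75-base windows. Reads on the bases that both genes cover map to a single place, and ENSG00000259827 has no values in these data. How such reads were assigned, and whether counts of MT1X are less certain than those of the other members, was not tested.

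Per kilobase of the main transcript, MT2A was the member with the highest level, at 5805 ± 1758 normalized counts per kb in CTCs (mean ± SD over 5 mice) and 6556 in the culture. MT1E followed at 358 ± 183 in CTCs and 209 in the culture, and MT1X at 318 ± 287 and 362. MT1F had 39.1 ± 53.6 in CTCs and 33.8 in the culture, and MT1G 7.49 ± 4.45 and 1.69. MT1M had 3.97 ± 8.47 in CTCs and 0 in the culture, and SLC30A1 1.32 ± 1.54 and 3.35. The main transcript used for MT1E is 746 bases long and those of the other metallothioneins 398 to 425, which lowers MT1E per kb relative to them. MT2A stood apart from MT1E by more than the SD over mice. Below MT2A, each member differed from the next by less than the larger SD of the pair on the main transcript. On all exons MT1E, at 254 ± 130 in CTCs, and MT1X, at 74.3 ± 67.1, lay farther apart than that. The order given is that of CTCs, and division by all annotated exon bases in place of the main transcript left it the same. In the culture MT1X lay above MT1E on the main transcript, but below it on all exons, at 84.8 against 148, and SLC30A1 lay above MT1G on both. The lowest mouse mean of MT2A was 3565 per kb and the highest mouse mean of MT1X, the next highest of all, 636 per kb.

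**Figure D1:**
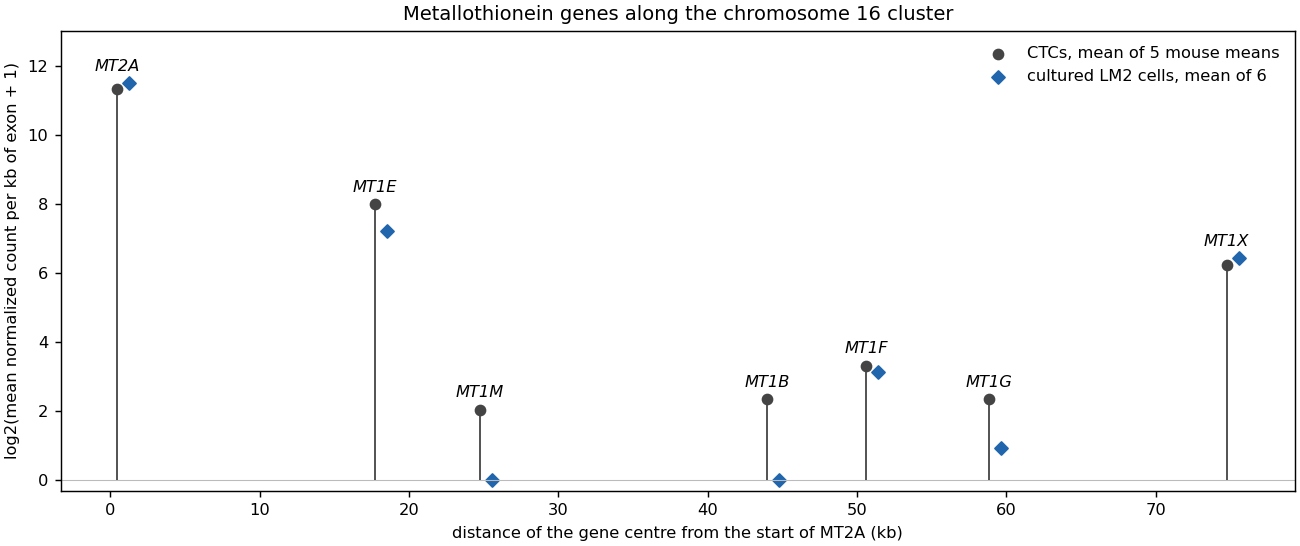
Level of each metallothionein gene on chromosome 16, as log2 of the mean normalized count per kb of annotated exon plus 1, against the distance of the gene centre from the start of MT2A in kb. Grey circles are the mean of 5 mouse means of CTCs and blue diamonds, moved slightly to the right, the mean of 6 cultured cells. MT2A at the left end stands highest, and MT1M and MT1B are at 0 in the culture.

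MT2A, the most widely expressed human metallothionein, was detected in 37 of 37 CTCs and 6 of 6 cultured cells, and its mean ranked 43 among all genes in CTCs and 54 in the culture. In mouse 5541 the CTCs had 1674 and 2384 normalized counts. In mouse 5542 they had 650, 2440, 3525 and 5994, and in mouse 5549 they had 516, 1542, 1751 and 1909. Each of these mice thus held CTCs at different levels, and mouse 5542 spanned nearly the whole range of the 37. The 10 CTCs of mouse 5545 ranged from 700 to 6039 with a median of 1567, and the 17 of mouse 5546 from 800 to 7030 with a median of 3074. Cultured cells ranged from 1356 to 3946 with a median of 2600. CTCs therefore reached both below and above the range of the cultured cells, and the groups overlapped. The MT2A mean was 2029 in mouse 5541, 3152 in mouse 5542, 2100 in mouse 5545, 2928 in mouse 5546, 1430 in mouse 5549 and 2629 in the culture.

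MT2A alone took between 0.0527% and 1.48% of the reads of a CTC, with a median of 0.262%, and between 0.117% and 0.295% in cultured cells, with a median of 0.190%. The 1.48% was in CTC 5546-s1, where MT2A was the gene with rank 6, and without it the highest share in that mouse was 0.619%. The 6 metallothionein members together took 0.286% of reads in the median CTC and 0.219% in the median cultured cell. MT2A made up between 67.6% and 100% of the reads on these 6 genes in CTCs, with a median of 88.3%, and between 84.7% and 94.4% in cultured cells. In 5549-6 it was the only member detected, and in 6 CTCs all 7 members were detected.

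MT1E, a neighbor of MT2A with the same metal-binding function, was detected in 36 of 37 CTCs and in 6 of 6 cultured cells. Its mean was 319 in mouse 5541, 393 in mouse 5542, 146 in mouse 5545, 379 in mouse 5546, 98.3 in mouse 5549 and 156 in the culture. In mouse 5541 the CTCs had 246 and 391, in mouse 5542 181, 229, 425 and 735, and in mouse 5549 0, 54.9, 149 and 190. The CTCs of mouse 5545 ranged from 1.96 to 348, those of mouse 5546 from 0.539 to 1085 and the cultured cells from 34.2 to 293. CTCs above the highest cultured cell were found in mice 5541, 5542, 5545 and 5546, and CTCs below the lowest one in mice 5545, 5546 and 5549.

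MT1X, an isoform strongly induced by metals, was detected in 33 of 37 CTCs and 6 of 6 cultured cells. Its mean was 250.6 in mouse 5541, 257.0 in mouse 5542, 42.8 in mouse 5545, 71.0 in mouse 5546, 20.3 in mouse 5549 and 146 in the culture. The CTCs of mouse 5541 had 107 and 394, and those of mouse 5542 20.5, 34.5, 307 and 666. Those of mouse 5549 had 0, 15.8, 27.5 and 38.1, all below the culture median of 117. The mean of mouse 5542 rested on CTC 5542-2 and was 121 without it, and the mean of the culture rested on cell LM-1 and was 96.9 without it. Relative to MT2A, MT1X was at 1.78% of the MT2A value in the median CTC and at up to 19.96% in 5545-1.

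MT1F and MT1G were present in fewer cells or at fewer reads. MT1F was detected in 13 of 37 CTCs (35.1%, exact 95% interval 20.2% to 52.5%) and in 4 of 6 cultured cells. It was at 0 in all 4 CTCs of mouse 5542, and its highest values were 112 in 5541-5, 100.4 in 5546-s4 and 98.0 in 5545-6, each above all other CTCs of its mouse. MT1G was detected in 31 of 37 CTCs (83.8%, exact 95% interval 68.0% to 93.8%) and in 3 of 6 cultured cells (50%, exact 95% interval 11.8% to 88.2%), with a median of 3 reads in cells where it was seen. With every cell thinned to 469614 reads, MT1G was detected in 24 CTCs and 2 cultured cells. Its mean was 4.49 in mouse 5541, 5.02 in mouse 5542, 1.81 in mouse 5545, 3.39 in mouse 5546, 0.653 in mouse 5549 and 0.694 in the culture. Without its highest CTC the mean was 1.13 in mouse 5541, 3.16 in mouse 5542 and 0.310 in mouse 5549. The intervals cover counting error only, since amplified reads cannot be counted as separate molecules and the CTCs of a mouse share their source.

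SLC30A1 was detected in 17 of 37 CTCs (45.9%, exact 95% interval 29.5% to 63.1%) and in 4 of 6 cultured cells (66.7%, exact 95% interval 22.3% to 95.7%). It was seen in 1 of 2 CTCs of mouse 5541 at 0.604, in 1 of 4 of mouse 5542 at 16.1 and in 1 of 4 of mouse 5549 at 3.36. It was seen in 6 of 10 CTCs of mouse 5545, with a highest value of 78.4, and in 8 of 17 of mouse 5546, with a highest value of 135. The cultured cells had 0, 0, 1.25, 29.7, 35.8 and 51.6. The exporter was thus at 0 in most CTCs of mice 5542, 5546 and 5549, above every cultured cell in 1 CTC of mouse 5545 and 3 of mouse 5546, and the groups overlapped. Its mean was 0.302 in mouse 5541, 4.04 in mouse 5542, 11.8 in mouse 5545, 21.7 in mouse 5546, 0.841 in mouse 5549 and 19.7 in the culture. Several of these means rested on 1 CTC: the mean of mouse 5545 was 4.45 without 5545-1, and those of mice 5541, 5542 and 5549 were 0 without their highest CTC. Across the 37 CTCs its value had a Spearman rho of 0.417 with the number of genes detected, which ranged from 2227 to 11010, and of 0.365 with the reads on genes. The part of depth in the detection of SLC30A1 was not tested beyond thinning, which left it in 16 CTCs and 3 cultured cells.

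**Figure D2:**
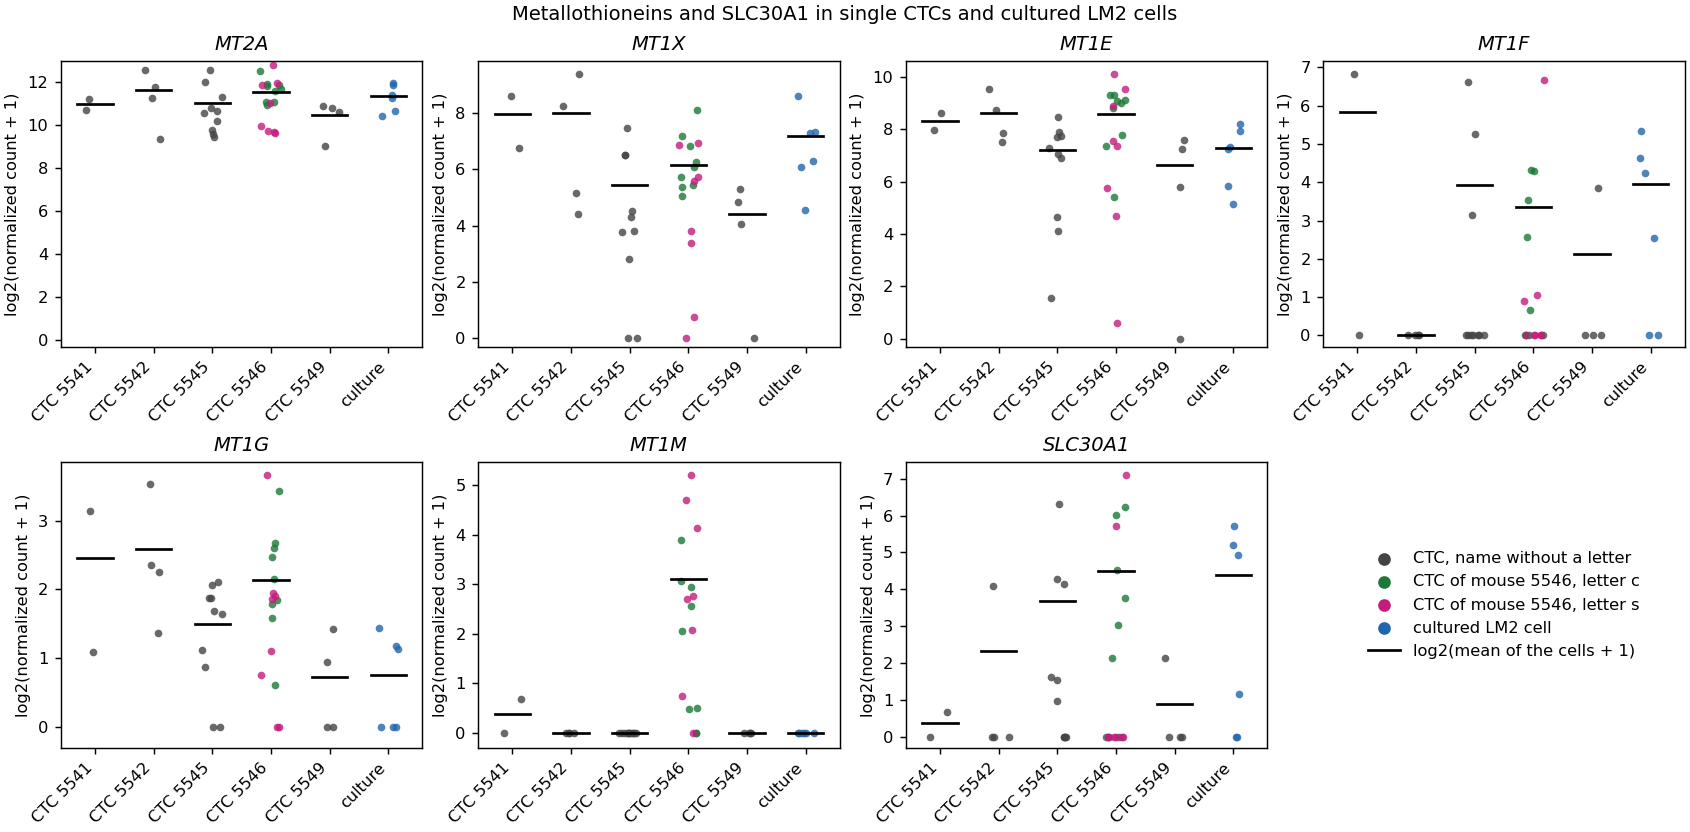
Normalized count of each member in every cell, as log2 of the value plus 1, by mouse for CTCs and for the cultured LM2 cells. Each point is a cell, colored by the letter in its library name, and the bar is log2 of the group's mean plus 1. MT2A is above 0 in all 43 cells, MT1M is above 0 almost only in mouse 5546, and MT1F and SLC30A1 are at 0 in many cells of each kind.

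MT1M and MT1B, a metallothionein of the same cluster outside the 7 members, at chr16:56651886-56653204 on the plus strand, were found almost only in mouse 5546. In the 17 CTCs of this mouse MT1M had 180 reads and MT1B 186 reads, each in 14 CTCs and both together in 13. In the 20 CTCs of the other 4 mice MT1M had 1 read, in 5541-5, and MT1B had 0. In the 6 cultured cells both genes had 0 of 5522296 reads, which allows up to 3 reads or 0.543 counts per 1000000 reads on genes (CPM). Mouse 5546 had 8.51 CPM for MT1M (exact 95% Poisson interval 7.31 to 9.85) and 8.80 for MT1B (7.58 to 10.2). These intervals cover counting error only, and the reads came from CTCs with between 0 and 43 reads of either gene. The level as measured was 15.7 times the limit of the culture for MT1M and 16.2 times for MT1B, without the counting error of that level, with 1 mouse on one side and 1 culture on the other and hence no test. Among the other mice the limit that a count of 0 allows was 0.469 CPM in mouse 5542, 0.253 in mouse 5545 and 0.678 in mouse 5549. In mouse 5541 it was 1.07 CPM for MT1B, and the 1 read of MT1M there allowed up to 1.98 CPM (exact 95% Poisson interval). All of these lie below mouse 5546.

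The reads of MT1M were spread over both kinds of library of mouse 5546. Libraries with the letter c had 57 reads of MT1M and 56 of MT1B in 9 CTCs, and those with the letter s had 123 and 130 in 8. The highest MT1M values were 35.8 in 5546-s8, 24.9 in 5546-s4, 16.5 in 5546-s1 and 13.9 in 5546-c8, where MT1B was at 37.6, 30.6, 14.3 and 15.5. Both genes thus rose in the same CTCs and at nearly equal values. Across the 17 CTCs their Spearman rho was 0.901, and it was 0.868 over the letter c and 0.929 over the letter s. These points share a mouse, and the pair was singled out after its values were seen.

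A search of the whole table for genes seen in at least 14 of the 17 CTCs of mouse 5546 and in at most 1 of the other 26 cells gave 7 of 25739 genes. These cutoffs equal the counts of MT1M itself, and MT1B was seen in 14 and 0. Both genes thus met the rule by construction, and the count of 7 is no independent measure of rarity. Besides MT1M and MT1B the 7 genes were the mitochondrial pseudogenes MTCO2P5, MTCO2P23 and MTCO2P1, the ribosomal pseudogene RPS12P23 and ENSG00000273870. Within the mouse, the rho of MT1M with these 5 ranged from 0.466 for ENSG00000273870 to 0.638 for MTCO2P23. With the summed neutrophil markers it was 0.860 and with the summed erythroid markers 0.408. The neutrophil sum ranged from 14.0 to 352 in mouse 5546, was 0 in every cultured cell, and had a median of 1.46 in the other CTCs. All 4 of the listed genes in the table were seen in mouse 5546. However, FCGR3B was at 0 in its libraries with the letter c and MPO in those with the letter s. The mean of mouse means was 68.4 for S100A9, 0.965 for CSF3R, 0.0670 for FCGR3B and 0.0536 for MPO. The neutrophil sum was thus mainly a measure of S100A9. It reached 571 in a CTC of mouse 5549, where MT1M and MT1B had 0 reads, and 93.7 in mouse 5545 and 85.0 in mouse 5542, also with 0 reads. The erythroid sum had a median of 1637 in mouse 5546 and of 1959 in mouse 5542. The part of RNA from host blood cells in the MT1M and MT1B reads was not tested.

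Across the CTCs, the metallothioneins that were seen in most cells had positive rank correlations, which were uneven between mice. MT2A had a Spearman rho of 0.777 with MT1G, 0.712 with MT1E and 0.456 with MT1X over 37 CTCs. In mouse 5545 alone the same values were 0.553, 0.455 and 0.188 over 10 CTCs, and in mouse 5546 they were 0.839, 0.875 and 0.385 over 17. After the mean rank of each mouse was taken out the values over all 37 were 0.765, 0.677 and 0.409. MT1E and MT1G had a rho of 0.840, and MT1E and MT1X one of 0.635. With the number of genes detected MT2A had a rho of 0.288, with reads on genes 0.168, and with the mitochondrial share -0.14. These are descriptions over cells that share a mouse, a preparation and the size factor by which both genes of a pair were divided.

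For SLC30A1, the zinc exporter, the rho was 0.181 with MT2A, 0.194 with MT1E, 0.224 with MT1G and 0.407 with MT1X. The difference between these values and those among metallothioneins was not tested, and 20 of 37 CTCs were at 0 for SLC30A1. In CTC 5546-s1, which had the highest MT2A at 7030 and the highest MT1E at 1085, SLC30A1 was at 0. In 5546-s5 and 5545-1, with the highest SLC30A1 at 135 and 78.4, MT2A was only 980 and 881 whereas MT1X was 121 and 176. MTF1, the zinc sensor, had a rho of 0.184 with MT2A and 0.201 with SLC30A1, and was itself seen in 16 of 37 CTCs.

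Among 9692 genes detected in at least 30% of CTCs, the 5 with the pattern most like MT2A were MT1G at a rho of 0.777, the processed pseudogene MT2P1 at 0.743, MT1E at 0.712, the nuclear import adaptor KPNA6 at 0.680 and the splicing factor CWC25 at 0.646. Thus 3 of the 5 were of the metallothionein family. MT1X ranked 123 in this order and SLC30A1 3065. MT1G had 0.881 normalized counts for every 1000 of MT2A in the median CTC and at most 3.60, and MT2P1 had a mean of 3.27 in CTCs against 2518 for MT2A. Both share stretches of sequence with MT2A, though none of its 75-base windows was found in a transcript of another gene. The part of MT2A reads placed on them was not tested. The 5 genes most like SLC30A1 were YTHDF2, a reader of methylated RNA, at 0.642, the replication factor GINS4 at 0.633, BIN3 at 0.631, ZNF254 at 0.626 and the RNA-binding protein HNRNPLL at 0.626. No metallothionein was among them, and MT1X was nearest at rank 472.

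**Figure D3:**
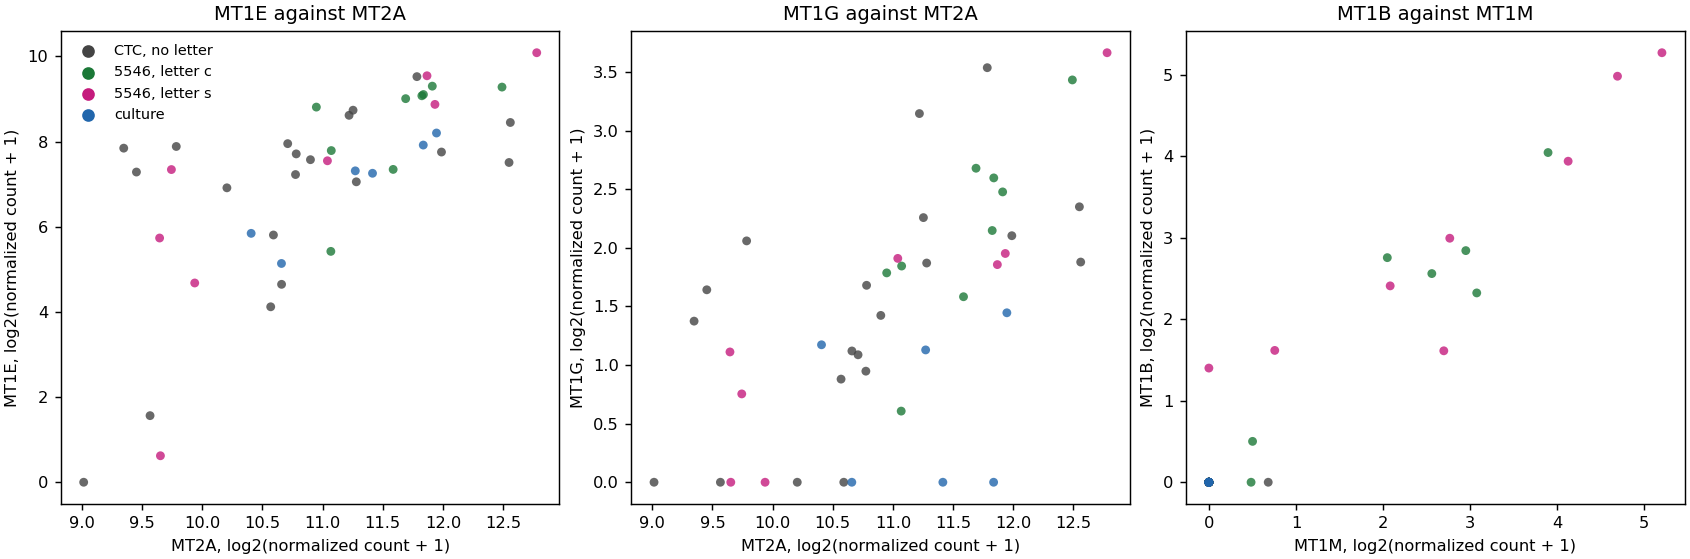
Pairs of metallothioneins across single cells, each axis as log2 of the normalized count plus 1. Points are CTCs without a letter (grey), CTCs of mouse 5546 with letter c (green) or s (magenta) and cultured cells (blue). MT1E and MT1G rise with MT2A, and MT1B rises with MT1M in mouse 5546 while almost all other cells lie at the origin of that plot.

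The culture served as the reference for what LM2 cells express outside the animal. For this comparison, the CTCs of a mouse were averaged, log2 of the mean plus 1 was compared between 5 mice and the 1 culture with limma, and p-values were adjusted by the Benjamini-Hochberg method over 14594 genes detected in at least 5 of 43 cells. Of these genes 0.0206% were higher in CTCs and 0.534% lower at an adjusted p under 0.05, which were 3 and 78 genes. Without mouse 5546 they were 1 and 384 genes, and without mouse 5541, 5542, 5545 or 5549 none was lower. In this limma fit none of the 7 members was called in either direction. None had an unadjusted p under 0.05, against 1569 of the 14594 genes tested. The edgeR test on summed reads called none either, with an unadjusted p of 0.0388 for MT1E (adjusted p = 1.00). With edgeR 0 of all 14594 genes were called in either direction. The culture is a single sample and is assumed here to vary as the mice do.

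MT2A differed by -0.23 on the log2 scale between CTCs and culture (95% interval -1.56 to 1.09, limma adjusted p = 0.852), with 2 mice above the culture and 3 below. Its sign turned to 0.61 in CPM without mitochondrial genes and to 1.19 with edgeR on summed reads. MT1X differed by -0.80 (95% interval -3.49 to 1.89, limma adjusted p = 0.765), and its sign turned to 0.11 and 1.21 in the same order. MT1E differed by 0.58 (95% interval -1.27 to 2.42, limma adjusted p = 0.756), with mice 5541, 5542 and 5546 above the culture, and by 1.44 in CPM without mitochondrial genes and 2.17 with edgeR. The interval of MT2A spans less than that of any other member, and the intervals of MT1F and SLC30A1 are the widest.

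MT1F differed by -0.89 (95% interval -5.12 to 3.34, limma adjusted p = 0.825), a sign that turned to 1.57 with edgeR, and by -2.46 with the median over cells. MT1G differed by 1.12 (95% interval -1.70 to 3.94, limma adjusted p = 0.702), with 4 mice above the culture and mouse 5549 just below it, and by 3.30 with edgeR, 0.76 after thinning and 0.33 with a pseudocount of 8. SLC30A1 differed by -2.02 (95% interval -6.02 to 1.99, limma adjusted p = 0.637), with 4 mice below the culture and mouse 5546 just above it. With the median over cells in place of the mean, SLC30A1 differed by -3.71 with a limma adjusted p of 0.0142, and 1841 genes were lower in CTCs under that setting. The SLC30A1 medians behind that value were 0 in mice 5542, 5546 and 5549, 0.302 in mouse 5541, 1.43 in mouse 5545 and 15.5 in the culture. With edgeR on summed reads the SLC30A1 difference was -0.10 with TMM and -0.16 with RLE scaling, and with a pseudocount of 8 it was -0.995. Across the alternatives other than the median the lowest adjusted p of SLC30A1 was 0.289, and no other member reached 0.05 under any alternative. MT1M was at 0 in the culture and in 3 mice, so its fitted value of 0.70 (limma adjusted p = 0.746) is no measure of fold.

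The scale moved most genes along with the members. The median log2 difference of all genes tested was -1.09 with the authors' size factors, -0.44 in CPM without mitochondrial genes and 0.31 with edgeR on summed reads. Against that median, MT2A stood higher by 0.86, 1.05 and 0.88 in the same order. MT1E stood higher by 1.67, 1.88 and 1.86, MT1G by 2.21, 1.99 and 2.99, MT1X by 0.29, 0.55 and 0.90 and MT1F by 0.20, 0.33 and 1.26. SLC30A1 stood at -0.93, -0.92 and -0.41 against it. These 5 metallothioneins thus stood above the median gene and the exporter below it on each of the 3 scales, as a description without a test. For MT1X and MT1F this did not hold under some other settings with the authors' size factors. Without mouse 5541 they stood at -1.19 and -1.59 against a median of -1.03. With the mean of logs over cells they stood at -1.25 and -1.34 against -1.19.

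Counted by mouse, 1.59% of the genes tested had all 5 mouse means above the culture and 46.3% had all 5 below it. Of the 7 members, 0 had all 5 above and 0 had all 5 below. By the rule of at least 4-fold in every mouse, after adding 1 to each mean and with a larger mean of at least 8, 0.0411% of genes were higher and 3.23% lower, and 0 of 7 members met it. The 6 metallothioneins summed to a median of 2308 in CTCs, with a range of 516 to 8197, and to a median of 2926 in cultured cells, with a range of 1436 to 4348.

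**Figure D4:**
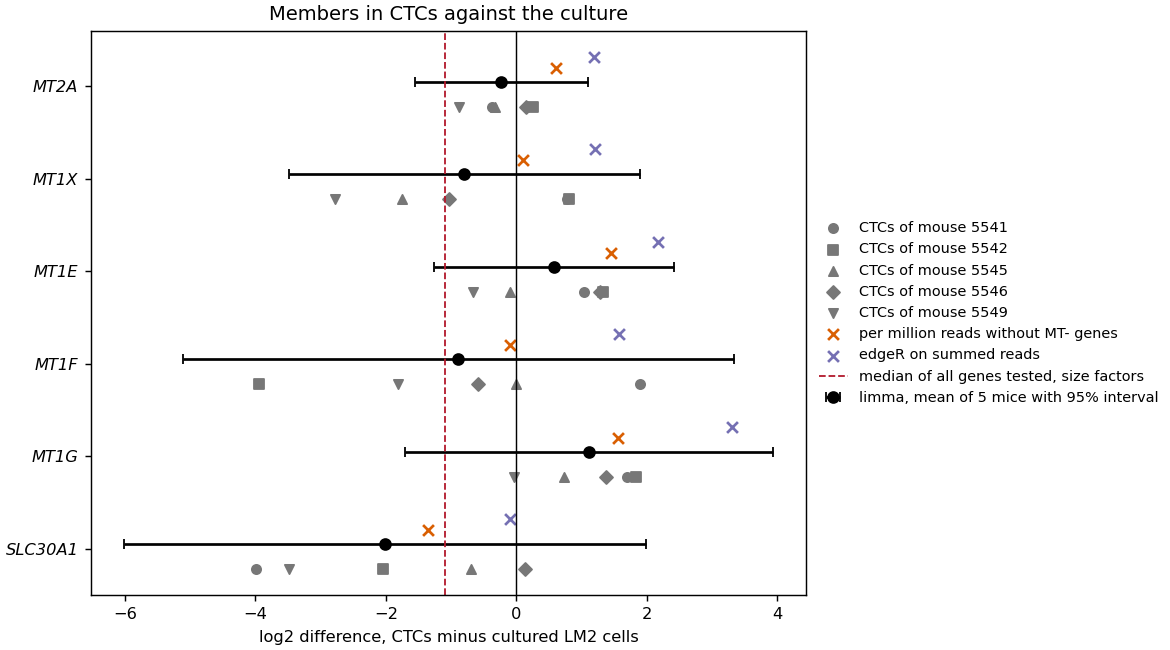
Log2 difference of CTCs from cultured LM2 cells for 6 members, where MT1M is left out because the culture is at 0. Black circles with bars are the limma estimate with its 95% interval, grey symbols the 5 mice, crosses the estimate on other scales, and the dashed line the median of all genes tested at -1.09. Every interval crosses 0, and for MT2A, MT1X and MT1F the sign turns with the scale.

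In mouse 5546 the members also varied with the letter in the library name. MT2A ranged from 1975 to 5756 with a median of 3304 in the 9 libraries with c, and from 800 to 7030 with a median of 1542 in the 8 with s. MT1E had a median of 513 in c and 174 in s, MT1X 66.9 and 30.1, and MT1G 3.43 and 1.89. SLC30A1 was seen in 6 of 9 libraries with c and in 2 of 8 with s. The median MT1M was higher in s, at 5.65 against 3.14. The number of genes detected was 7438 to 11010 in c and 4225 to 6942 in s, so the letters differed in depth of detection without overlap. All 17 cells come from 1 mouse, so no test was made, and the part of detection in these differences was not tested.

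The remaining metallothioneins were seen at few reads. Of 10 other family genes and pseudogenes, 9 were tested, 0 were called and the median log2 difference was 0.37 against -1.09 for all genes, without a test of that difference, and 3.58 with edgeR. MT2P1 had 1.16, MT1B 0.63, MT1P3 0.60 and MT1L 0.45. MT2P1 was seen in 29 of 37 CTCs and 1 of 6 cultured cells, and both MT2P1 and MT1L had means above the culture in all 5 mice, as did 1.59% of all genes tested. These values are close to single reads, and MT1B, MT1P3 and MT1L were at 0 in every cultured cell.

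The other genes that move zinc were examined next, and by limma none passed the test. Beside the limma values, edgeR called 0 genes in each of the lists below, as it called 0 of all genes tested. Of all genes in these lists only SLC39A8 had an unadjusted limma p under 0.05, against 1569 of the 14594 genes tested. Of 9 other exporters of the SLC30 family, 5 were tested and 0 were called, with a median log2 difference of -2.45 (-0.84 with edgeR). They were the endosomal and Golgi transporters SLC30A6 at -3.35, SLC30A5 at -3.04 and SLC30A4 at -2.45, with SLC30A9 at -1.75 and SLC30A7 at -0.91. Of 14 importers of the SLC39 family, which bring zinc into the cytosol, 11 were tested, 0 were called and 9 had all 5 mouse means below the culture, against 46.3% of all genes tested, with a median of -1.95 (-0.34 with edgeR). SLC39A8, a zinc and manganese importer, had the largest difference of the list at -4.49, with a mean of 2.92 ± 4.07 (SD, n = 5 mice) in CTCs and 59.3 in the culture. It was followed by SLC39A1 at -2.97, SLC39A11 at -2.59 and SLC39A7, the transporter that releases zinc from the endoplasmic reticulum, at -2.18. All genes tested had a median of -1.09 with limma and 0.31 with edgeR, and the difference of the lists from it was not tested.

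Genes listed for metal and oxidative stress, among them the zinc sensor MTF1 itself and MTF2, had negative limma differences except for HMOX1. Of 11 tested, 0 were called and the median was -1.42 (-0.01 with edgeR), with 6 of the 11 having all 5 mice below the culture against 46.3% of all genes tested. MTF1 had -2.50, the glutathione synthesis subunit GCLM -2.46, the thioredoxin reductase TXNRD1 -1.97 and sulfiredoxin SRXN1 -1.92. Heme oxygenase HMOX1 was at 1.67 (limma adjusted p = 0.720), with 4 of 5 mice above the culture.

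Of 10 copper genes, 8 were tested, 0 were called and the median was -0.97, which turned to 0.50 with edgeR. The copper importer SLC31A1 had -1.68, the chaperones CCS -1.36 and COX17 -1.06 and the copper pump ATP7A -0.996. Of 6 iron genes, 5 were tested, 0 were called and the median was -1.05, which turned to 0.55 with edgeR. The transferrin receptor TFRC had -3.78, the iron importer SLC11A2 -2.59, the iron exporter SLC40A1 -1.05 and ferritin FTH1 -0.71.

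Glucocorticoid-responsive genes were listed because glucocorticoids also induce metallothioneins. Of 10 such genes, 9 were tested, 0 were called and the median was 0.26 (2.62 with edgeR). FKBP5, a chaperone of the glucocorticoid receptor, had -3.62 and was below the culture in all 5 mice. That held for 2 of the 9 genes and for 46.3% of all genes tested. TSC22D3 (GILZ) had 2.44, with a mean of 231 ± 297 (SD, n = 5 mice) in CTCs and 20.04 in the culture, the phosphatase DUSP1 had 1.61 and the transcription factor KLF9 1.58, each above the culture in 4 of 5 mice. The listed genes thus lay on both sides of the culture and none passed the test (limma adjusted p from 0.480 to 0.959).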

How the data were processed

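Single-cell RNA of 37 CTCs and 6 cultured LM2 cells was used, grouped by mouse and culture from the labels. The authors aligned reads with STAR 2.7.10a to GRCh38 with an annotation from GENCODE, kept uniquely mapped reads without regard to strand, and divided the counts by DESeq2 1.42.1 size factors. The deposited values are therefore a signal, called normalized counts here. For the alignment of these CTCs from mouse blood the paper names only the human genome. The part of mouse RNA in the counts of any member was not tested. A further 4 CTC libraries, marked as excluded by the authors, have no values. Whole reads were recovered for 100% of the values (tolerance 0.001) and used for depth, thinning to 469614 reads, shares and edgeR.

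The main comparison used limma 3.58.1 (R 4.3.3, empirical Bayes with trend) on log2(mean + 1) per mouse and culture over genes detected in at least 5 cells. Fold changes on this scale understate those of low genes. Alternatives were pseudocounts of 0.1 and 8, the median or the mean of logs over cells, values as CPM, filters on genes, thinning, edgeR 4.0.16 quasi-likelihood tests on summed reads with TMM or RLE, and leaving out each mouse, each cultured cell, the libraries with letter s or CTC 5545-6. On simulated data with 200 of 14594 genes changed 8-fold, limma recovered 200 at a dispersion of 0.02 and 0 at a dispersion of 0.4, and edgeR 200 and 30. The dispersion of the real data was not compared with either value. A gene that was not called is therefore not shown to be unchanged. Samples of 1 group may differ by technique as well as biology, since cells were picked and amplified singly. All labels name 1 batch date.

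Named are the 7 members, the 4 genes of the largest absolute log2 difference in each list, and the 5 genes most like MT2A and SLC30A1, in Python 3.11.15. The genes shared by mouse 5546, MT1B, SLC30A7, MTF2 and HMOX1 were named after their values were seen. The members and lists were chosen with earlier results of these data known. Gene positions came from a later GENCODE annotation of the same build.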

Additional observations from a re-analysis of the deposited data

Results flagged for a closer look

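In 27 groups of 4 to 10 cells examined for a cell far from the others by Dixon's test, 7 held one. Chance gives about 1 in 20 groups for normally distributed values without ties. The test was run on normalized counts, which were not on a log scale and hold many values of 0, so that rate does not apply here. In 3 of the 7 groups all other cells were at 0, so that any value above 0 was far from them. SLC30A1 was at 16.1 normalized counts in 5542-2 with the other CTCs of that mouse at 0, and at 3.36 in 5549-3, again with the others at 0. It was at 78.4 in 5545-1, where the next CTC had 18.6. In the same CTC, 5545-1, MT1X was at 176 and the next CTC of the mouse had 89.7. MT1F was at 98.0 in 5545-6 against 37.5 in the next CTC, and at 13.5 in 5549-3 with the others at 0. In the culture, MT1X was at 394 in LM-1 against 160 in the next cell. Cells 5545-1 and 5549-3 were each flagged for a pair of members.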

How the results depend on the processing

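No paired analysis was possible because the numbers in the library names only name cells. The culture is 1 sample, and sparse counts limit MT1F, MT1G, MT1M and SLC30A1, for which a value of 0 does not show absence. No alternative called a member except the median over cells, where SLC30A1 was at -3.71, and the cause was not tested. Without a change of sign, edgeR with TMM gave -0.10 for SLC30A1, 2.17 for MT1E and 3.30 for MT1G, CPM without mitochondrial genes gave 1.44 for MT1E, -1.36 for SLC30A1 and -0.10 for MT1F, and a pseudocount of 8 gave -0.995 for SLC30A1, -0.26 for MT1F and 0.33 for MT1G. In CPM without mitochondrial genes, MT2A reversed to 0.61 and MT1X to 0.11, and the summed metallothioneins moved from -0.17 to 0.68. With edgeR under TMM and RLE, MT2A reversed to 1.19 and 1.17, MT1X to 1.21 and 1.21, MT1F to 1.57 and 1.61, and the sum moved to 1.24 and 1.22; these scales shift all genes, as given above. Genes higher in CTCs numbered 3, and 1 with a pseudocount of 8, the median, no filter, a mean of at least 8 or thinning, and 0 with edgeR under either scaling, where 225 (TMM) and 227 (RLE) genes had an unadjusted p under 0.05. Genes lower in CTCs numbered 78, and 0 with a pseudocount of 0.1, a mean of at least 8 or edgeR, 476 with a pseudocount of 8, 1841 with the median, 989 with the mean of logs, 5 in CPM and 1800 with no filter. At a mean of at least 8, MT1G and MT1M could not be tested. Leaving out 1 mouse or 1 cultured cell gave -0.37 to -0.07 for MT2A, -1.20 to -0.21 for MT1X, 0.37 to 0.89 for MT1E, -1.59 to -0.13 for MT1F, 0.94 to 1.41 for MT1G, 0.095 to 0.87 for MT1M, -2.55 to -1.49 for SLC30A1, -0.31 to 0.018 for the sum, 0 to 3 genes higher and 0 to 384 lower. Genes lower numbered 384 without mouse 5546 and 0 without any other mouse, and genes higher numbered 0 without mouse 5549 and 1 without mouse 5542, 5545 or 5546. MT1M was at 0.095 without mouse 5546, and the sum turned to 0.018 without mouse 5549. A value of at least 8 lowered the share of CTCs with MT1G to 8.11%, with MT1M to 10.8% and with SLC30A1 to 27.0%. Of the 5 genes most like SLC30A1, 2 were shared when genes had to be detected in 50% of CTCs.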
